A study of Homo sapiens with 10 samples.

Results

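Matrix metalloproteinases (MMPs) and their tissue inhibitors (TIMPs) were measured in the human breast cancer line MDA-MB-231 and in lines from its regrown xenografts. MDA-MB-231 is an established line of the triple-negative type, which lacks hormone receptors and HER2 amplification. The genes were MMP1, MMP2, MMP3, MMP9, MMP10, MMP14, TIMP1, TIMP2 and TIMP3, taken by name, 9 of the 19775 genes named on the array. They were chosen with earlier results of these data known, so counts of called members are descriptive. Every probe set annotated to 1 of these genes alone was used, which gave 19 probe sets. No probe set named one of these genes together with another gene. RNA was measured on Affymetrix arrays, 2 per line and 10 in all, as log2 values. The tumour lines were T2 and T3, labelled resistant to SM-164, and T6 and T8, labelled sensitive. Each consisted of tumour cells isolated from an MDA-MB-231 xenograft in a SCID mouse that had received SM-164, a Smac mimetic, at 5 mg/kg intravenously on 5 days a week for 2 weeks, and had regrown afterwards. They were set against parental MDA-MB-231 cells in standard culture, which the labels also call sensitive to SM-164. A xenograft without the drug was not analysed here, so growth in the mouse, the drug and the isolation of the cells cannot be told apart in any difference from parental cells. The labels leave unsaid whether both arrays of a line had a culture each, so a p-value over arrays measures the spread of these arrays, which may be technical.

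MMPs are zinc endopeptidases, most of them secreted as inactive proenzymes, that cut collagens and other proteins of the extracellular matrix. TIMPs bind the active site of the enzymes and block it, so that matrix breakdown depends on both families. In MDA-MB-231 cells MMP1 is known as one of the genes raised in sublines that metastasise to lung. The arrays measure RNA and say nothing of protein, secretion or enzyme activity, and with several kinds of cell in an isolate, fewer cells of a kind and less RNA per cell cannot be told apart.

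The lines were checked against markers of the cell type. VIM, CD44, EGFR and KRT18, which MDA-MB-231 cells express, had line means between 10.65 and 14.37. The progesterone receptor gene PGR lay below log2 5 in every line and the cadherin gene CDH1 between 4.51 and 5.40, both listed as low in this line. The other genes so listed were not near background in any line, with ESR1 at 6.56 to 6.71, ERBB2 at 8.83 to 9.26 and EPCAM at 8.40 to 9.10. Of 9 markers of fibroblasts and pericytes, cells that make MMPs in tumour stroma, 6 were tested. None of these was called higher and 2 were called lower in the tumours, while COL3A1, LUM and FAP lay below log2 5 in every line and were not tested. Of 8 listed markers of macrophages and neutrophils 7 were on the array and 5 were tested, with none called higher and 3 called lower. Of 6 endothelial markers 3 were called higher, CDH5, KDR and TIE1, and T8 was the highest line in each of these. Over all genes tested 25.5% were called higher and 16.8% lower in this comparison. CDH5 averaged 5.16 in T8 against 3.59 in parental cells, but 3.55 in T2 and 3.35 in T3. The line means of CDH5 and TIE1 exceeded log2 5 in T8 alone, so their high values there helped them to be tested, and the count supports nothing by itself. The mean log2 value of the endothelial markers was 5.23 to 5.65 on tumour arrays and 5.23 to 5.24 on parental arrays. That of the fibroblast markers was 5.68 to 5.85 on tumour arrays and 5.81 to 5.83 on parental arrays, and that of the macrophage markers 5.62 to 5.81 on tumour arrays and 5.90 to 5.99 on parental arrays. Host cells would be of the mouse, and their part in the differences given here was not tested.

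MMP10, MMP1 and MMP3 are neighbours on chromosome 11 (GRCh38.p14). MMP10 spans 102770502 to 102780628, MMP1 spans 102789919 to 102798160 and MMP3 spans 102835801 to 102843609, with no other protein-coding gene between them in the RefSeq gene table. MMP2 lies on chromosome 16, MMP9 on 20, MMP14 on 14, TIMP1 on X, TIMP2 on 17 and TIMP3 on 22. TIMP1 overlaps the synapsin gene SYN1 and TIMP3 overlaps SYN3, TIMP2 overlaps CEP295NL, MMP9 overlaps SLC12A5-AS1, and MMP1 and MMP3 overlap the pseudogene WTAPP1. The RefSeq promoter table of the same build held 4 of the 9 genes: MMP10, MMP14, TIMP1 and TIMP3. The 3 windows below run from 250 bases before the start of the gene to 50 after it, and are shown because the RNA of MMP10 was higher and that of TIMP1 and TIMP3 lower in every tumour than in parental cells. Capitals mark TATAAA and TGANTCA, searched on both strands. TGANTCA is a loosened form, chosen after the windows had been read, of the AP-1 element TGAGTCA.
MMP10, chr11:102780579-102780878, minus strand: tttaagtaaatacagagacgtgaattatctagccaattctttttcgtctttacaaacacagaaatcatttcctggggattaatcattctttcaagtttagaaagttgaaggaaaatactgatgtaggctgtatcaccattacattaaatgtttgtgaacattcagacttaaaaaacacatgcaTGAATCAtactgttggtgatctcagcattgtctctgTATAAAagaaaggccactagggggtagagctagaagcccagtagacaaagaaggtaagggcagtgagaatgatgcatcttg
TIMP1, chrX:47582186-47582485, plus strand: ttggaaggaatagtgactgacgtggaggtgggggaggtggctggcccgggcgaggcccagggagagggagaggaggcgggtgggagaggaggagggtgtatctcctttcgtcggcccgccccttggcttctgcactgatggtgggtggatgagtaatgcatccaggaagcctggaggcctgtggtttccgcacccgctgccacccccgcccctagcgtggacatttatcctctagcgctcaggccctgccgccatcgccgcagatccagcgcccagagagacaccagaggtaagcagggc
TIMP3, chr22:32801455-32801754, plus strand: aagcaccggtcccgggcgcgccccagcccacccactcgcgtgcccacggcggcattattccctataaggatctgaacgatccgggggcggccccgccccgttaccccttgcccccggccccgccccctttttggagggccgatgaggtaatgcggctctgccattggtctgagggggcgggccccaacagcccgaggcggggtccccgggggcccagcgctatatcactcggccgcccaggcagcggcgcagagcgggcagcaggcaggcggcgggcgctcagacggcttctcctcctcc
The MMP10 window held TGAATCA at bases -67 to -61 and TATAAA at -31 to -26 from the start. Neither motif was found in the TIMP1, TIMP3 or MMP14 window, and TGAGTCA itself was in none of the 4. TGANTCA loosens the fourth base only, and other bases were not loosened in the search. The TIMP1 window holds TGAGTAA, which departs from TGAGTCA at the sixth base. The windows thus do not show that MMP10 has an AP-1-like element and TIMP1 has none. Of 35116 promoter windows of the same length, 11.5% held TATAAA, 7.71% TGANTCA and 4.95% TGAGTCA. The windows differed in base composition, at 36.3% G and C in MMP10 against 55.0% in MMP14, 65.0% in TIMP1 and 72.7% in TIMP3.

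All 9 genes passed the filter for testing, which asked for log2 5 on at least 2 arrays, and so did 18 of the 19 probe sets. The exception was a probe set of MMP2 (1566677_at). Of the 9 genes, MMP1, MMP3 and MMP10 were higher and MMP14, TIMP1, TIMP2 and TIMP3 were lower in the mean of the 4 tumours than in parental cells (limma, Benjamini-Hochberg adjusted p under 0.05). MMP2 and MMP9 were not called. Over all 14929 genes tested, 25.5% were called higher and 16.8% lower in this comparison, and 42.3% in either direction. A call by itself was thus common on these arrays. The median difference was -0.20 over the 9 genes and 0.0015 over all genes tested.

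**Figure D1:**
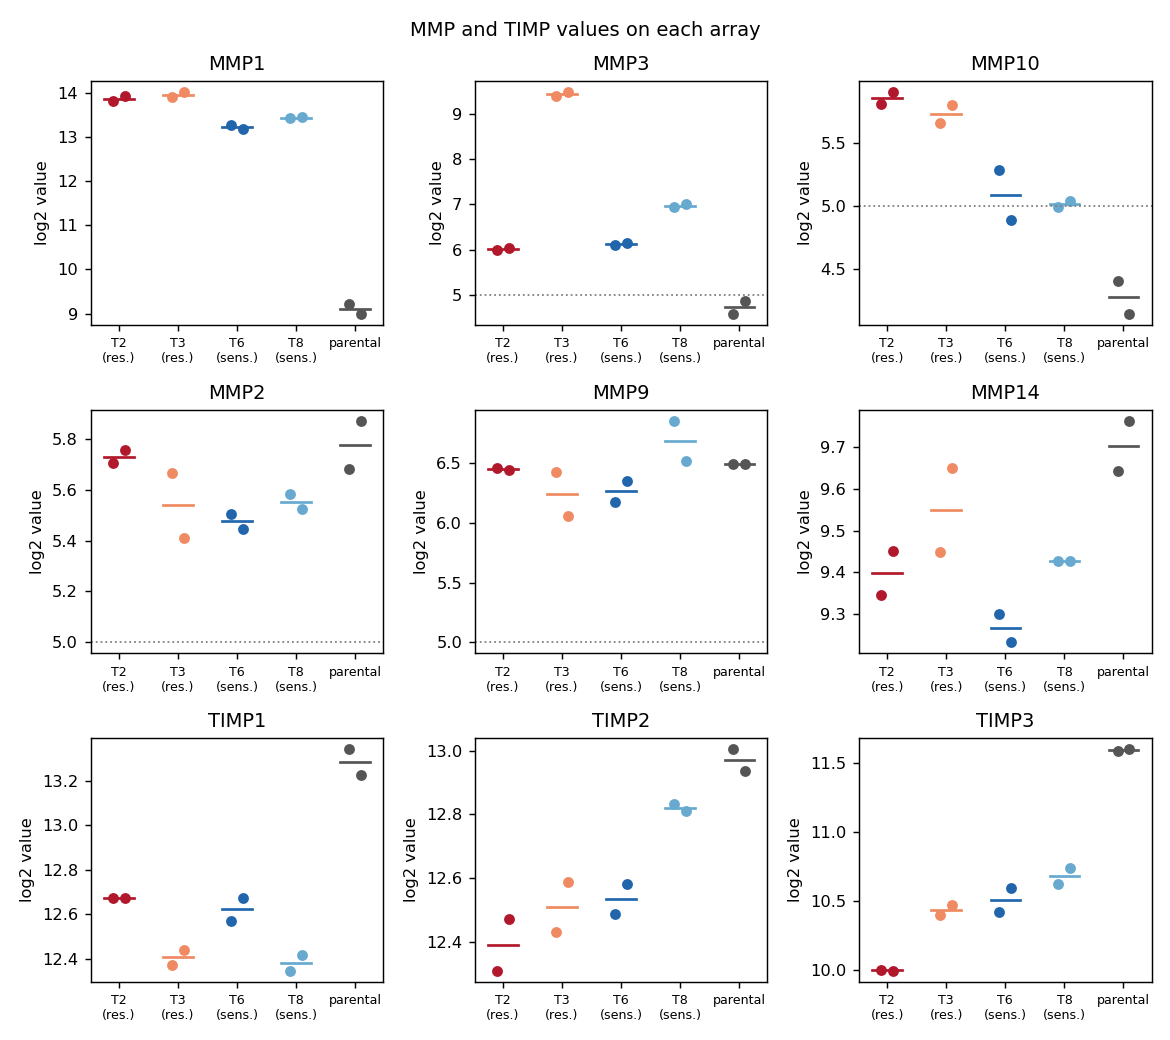
Log2 values of the 9 genes on each array (points) and line means (bars) for the resistant tumours T2 and T3, the sensitive tumours T6 and T8 and parental cells; each panel has its own axis, and the dotted line, where shown, is log2 5. MMP1, MMP3 and MMP10 lie higher on every tumour array than on both parental arrays, TIMP1, TIMP2 and TIMP3 lower, and T3 stands alone for MMP3.

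MMP1 encodes the interstitial collagenase, which cleaves fibrillar collagens. Its log2 values were 13.82 and 13.93 in T2, 13.91 and 14.02 in T3, 13.28 and 13.17 in T6 and 13.42 and 13.45 in T8, against 9.22 and 8.995 in parental cells. The tumour and parental arrays did not overlap, and every array of the resistant tumours lay above every array of the sensitive ones. The mean of the tumours was 22.9-fold that of parental cells, a log2 difference of 4.52 ± 0.06 (SE, 8 arrays against 2; adjusted p = 3.64e-16), the largest by size of the 14929 genes. By tumour the difference was 4.76 in T2, 4.85 in T3, 4.12 in T6 and 4.33 in T8. These 4 comparisons share the parental arrays. The highest value of any probe set on an array was 14.69 to 14.77, so the tumour values of MMP1 lay near the top of the scale, where an array may understate a difference. T3 did not differ from T2 beyond the spread of arrays (T2 minus T3, -0.09 ± 0.07, adjusted p = 0.405), nor T6 from T8 (-0.21 ± 0.07, adjusted p = 0.0680), whereas T2, the lower of the resistant lines, was above T8 by 0.43 ± 0.07 (adjusted p = 0.000378).

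MMP3, stromelysin 1, degrades many matrix proteins and can activate the proenzymes of other MMPs. Its log2 values were 5.98 and 6.02 in T2, 9.39 and 9.48 in T3, 6.11 and 6.15 in T6 and 6.93 and 7.01 in T8, against 4.58 and 4.86 in parental cells. T3 stood far above the other tumours, T8 came next, and T2 and T6 lay close together. The difference from parental cells was 4.71 ± 0.12 in T3 (adjusted p = 6.77e-13), 2.25 ± 0.12 in T8, 1.41 ± 0.12 in T6 and 1.28 ± 0.12 in T2. Both parental values lay below log2 5, near background, where differences are compressed, so these sizes are uncertain. Between tumours, where all values were above log2 5, T2 was lower than T3 by 10.8-fold (-3.43 ± 0.12, adjusted p = 3.09e-11) and T3 was above T8 by 5.51-fold (2.46 ± 0.12, adjusted p = 6.64e-09). T6 was below T8 (-0.85 ± 0.12, adjusted p = 0.000285). T2 and T6 did not differ beyond the spread of their arrays (-0.13 ± 0.12, adjusted p = 0.543). The mean difference of 2.41 ± 0.09 between the 4 tumours and parental cells came to 1.65 when T3 was left out, an alternative added after the data were seen, and was still called.

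MMP10 is stromelysin 2, close in sequence and substrates to MMP3. Its log2 values were 5.80 and 5.90 in T2, 5.65 and 5.80 in T3, 5.28 and 4.89 in T6 and 4.99 and 5.04 in T8, against 4.40 and 4.14 in parental cells. T2 and T3 lay above T6 and T8 without overlap, and all of these above parental cells, but all of this was within the lowest part of the scale. The tumours were higher than parental cells by 1.15 ± 0.12 (adjusted p = 2.89e-06), with 1.58 in T2, 1.45 in T3, 0.81 in T6 and 0.74 in T8. T3 was above T6 by 0.64 ± 0.15 (adjusted p = 0.00650). The difference was 0.13 ± 0.15 for T2 minus T3 (adjusted p = 0.613) and 0.07 ± 0.15 for T6 minus T8 (adjusted p = 0.836), neither beyond the spread. With the parental values under log2 5 and those of T6 and T8 about there, the direction is better measured than the size.

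**Figure D2:**
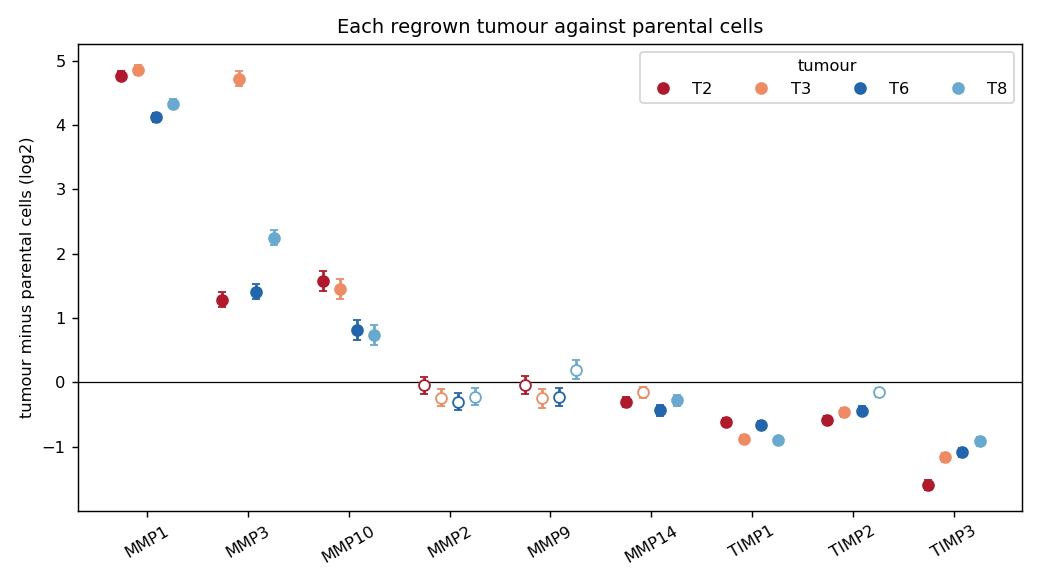
Log2 difference of each tumour line from parental cells for the 9 genes, with the SE of the fit as bars; filled points passed the test over all genes and open points did not. MMP1 differs by 4.12 to 4.85 in the 4 tumours, MMP3 by 1.28 to 4.71, and TIMP3 by -1.59 to -0.91.

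The gelatinase genes MMP2 and MMP9, whose enzymes cut denatured collagen and the collagen IV of basement membranes, did not pass the test. MMP2 had log2 values of 5.70 and 5.76 in T2, 5.67 and 5.41 in T3, 5.51 and 5.45 in T6 and 5.58 and 5.52 in T8, against 5.68 and 5.87 in parental cells. The tumour and parental arrays overlapped, and the difference was -0.20 ± 0.10 (adjusted p = 0.133). Its next probe set (1566678_at) gave -0.12 ± 0.13 (adjusted p = 0.474), and the remaining one stayed at 3.37 to 3.81 on all arrays. MMP9 had log2 values of 6.46 and 6.44 in T2, 6.43 and 6.06 in T3, 6.18 and 6.35 in T6 and 6.86 and 6.52 in T8, against 6.49 on both parental arrays. Its difference was -0.08 ± 0.11 (adjusted p = 0.610), with T8 above and the other tumours below parental cells. Between tumours, MMP9 was called once, lower in T3 than in T8 (-0.44 ± 0.14, adjusted p = 0.0442), a call that ended without T8 replicate 1.

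MMP14 encodes the membrane-type MMP that, together with TIMP2, activates the MMP2 proenzyme at the cell surface. Its leading probe set (160020_at) had log2 values of 9.35 and 9.45 in T2, 9.45 and 9.65 in T3, 9.30 and 9.23 in T6 and 9.43 and 9.43 in T8, against 9.64 and 9.76 in parental cells. One T3 array reached the lower parental array, and the other tumour arrays lay below both. The tumours were lower by -0.29 ± 0.07 (adjusted p = 0.00219), a 1.22-fold difference. Without parental replicate 2 it was no longer called (-0.23, adjusted p = 0.0633). T2, T6 and T8 were called lower than parental cells one by one, at -0.30, -0.44 and -0.28, and T3 was not (-0.15 ± 0.08, adjusted p = 0.166). Of its other probe sets, 202828_s_at and 202827_s_at gave -0.31 each and were called in a fit over all probe sets, while 217279_x_at, whose probes may bind other transcripts, gave -0.14 ± 0.07 and was not (adjusted p = 0.133). By tumour, 202828_s_at was called lower in T3 (-0.26 ± 0.09, adjusted p = 0.0374) and not in T8 (-0.20 ± 0.09, adjusted p = 0.0991), unlike the leading probe set. The probe set 217279_x_at was called in no tumour.

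The 3 inhibitor genes were lower in the tumours. TIMP1, which inhibits most secreted MMPs, had log2 values of 12.67 and 12.67 in T2, 12.37 and 12.44 in T3, 12.57 and 12.67 in T6 and 12.35 and 12.42 in T8, against 13.34 and 13.22 in parental cells. No tumour array came near the parental ones, and T2 and T6 lay above T3 and T8. The difference was -0.76 ± 0.05 (adjusted p = 7.95e-09), 1.70-fold, and -0.61 in T2, -0.88 in T3, -0.66 in T6 and -0.90 in T8. T3 was below T6 (-0.22 ± 0.06, adjusted p = 0.0145), whereas the differences between T2 and T6 (0.05 ± 0.06, adjusted p = 0.634) and between T3 and T8 (0.03 ± 0.06, adjusted p = 0.815) were within the spread.

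TIMP2, the inhibitor that also takes part in the activation of MMP2, had log2 values of 12.31 and 12.47 in T2, 12.43 and 12.59 in T3, 12.49 and 12.58 in T6 and 12.83 and 12.81 in T8, against 13.01 and 12.94 in parental cells. T8 came close to parental cells and the other tumours lay lower. The mean difference was -0.41 ± 0.05 (adjusted p = 2.42e-05), with -0.58 in T2, -0.46 in T3 and -0.44 in T6, each called. In T8 it was -0.15 ± 0.07, not called (adjusted p = 0.0865). The further probe sets of TIMP2 gave -0.01 ± 0.07 (224560_at) and 0.17 ± 0.07 (203167_at) for T8, neither called in the fit over all probe sets, so the direction in T8 differed between probe sets. In T2, T3 and T6 all 3 probe sets were called lower, between -0.63 and -0.28. T6 was below T8 by -0.29 ± 0.07 (adjusted p = 0.0103), and T3 below T8 by -0.31 ± 0.07 (adjusted p = 0.00555). On this leading probe set T2, T3 and T6 did not differ from each other beyond the spread (adjusted p = 0.204 to 0.839). On 203167_at T2 was called lower than T3 (-0.31 ± 0.07) and than T6 (-0.35 ± 0.07), and on 224560_at lower than T6 (-0.25 ± 0.07, adjusted p = 0.0486), while T3 and T6 were not called apart on any of the 3.

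TIMP3, an inhibitor that binds to the matrix and also blocks several ADAM proteases, showed the largest fall of the 9 genes. Its log2 value averaged 9.996 in T2, whose arrays were 0.0083 apart, and the arrays read 10.39 and 10.47 in T3, 10.41 and 10.59 in T6 and 10.62 and 10.74 in T8, against 11.58 and 11.60 in parental cells. Every tumour array lay below both parental arrays, and T2 lay below the other tumours. The tumours were lower by 2.28-fold, -1.19 ± 0.06 (adjusted p = 5.17e-10), with -1.59 in T2, -1.16 in T3, -1.09 in T6 and -0.91 in T8. All 4 probe sets of TIMP3 were called lower in each tumour, from -1.62 for 201147_s_at in T2 to -0.76 for the same probe set in T8. T2 was below T3 by -0.43 ± 0.07 (adjusted p = 0.000252). T3 and T6 (-0.07 ± 0.07, adjusted p = 0.523) and T6 and T8 (-0.18 ± 0.07, adjusted p = 0.124) did not differ beyond the spread, although T3 was below T8 (-0.25 ± 0.07, adjusted p = 0.0269), a call that 201150_s_at did not give (-0.09 ± 0.09).

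**Figure D3:**
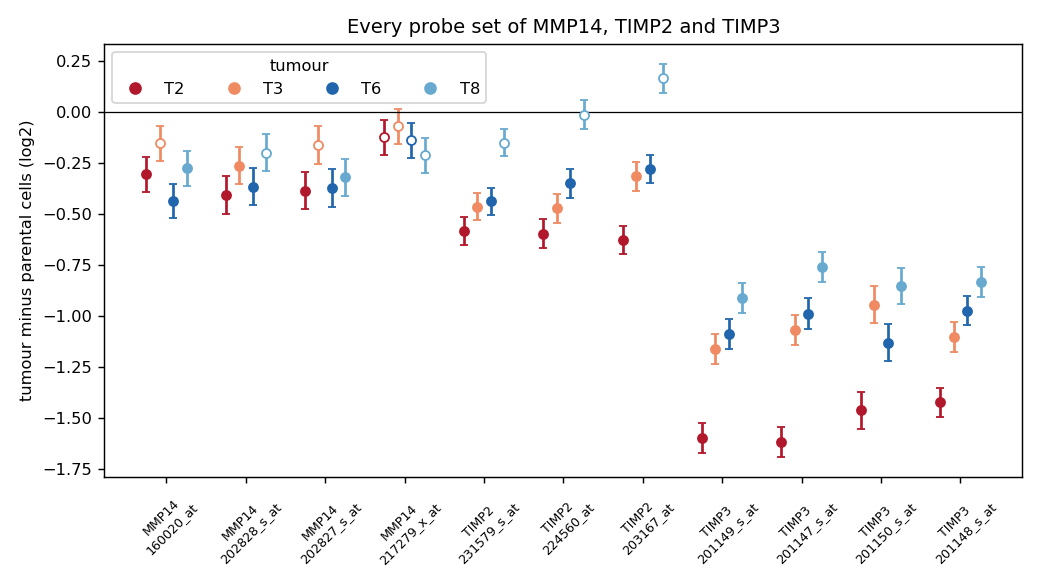
Log2 difference of each tumour line from parental cells for every probe set of MMP14, TIMP2 and TIMP3, with the SE of a fit over all probe sets; filled points passed the test and open points did not. The 4 TIMP3 probe sets give like values, while those of TIMP2 run from -0.15 to 0.17 in T8.

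In T2, 3 of the 9 genes were called higher and 4 lower than in parental cells, where 17.5% of all genes tested were higher and 15.5% lower (33% in either direction). In T3 the count was 3 higher and 3 lower (22.1% and 15.8%, 37.9% in either). In T6 it was 3 higher and 4 lower (20.7% and 13.7%, 34.5% in either) and in T8 3 higher and 3 lower (28.7% and 15.1%, 43.8% in either). The higher genes were MMP1, MMP3 and MMP10 each time, and TIMP1 and TIMP3 were among the lower genes each time. As the 4 comparisons use the same parental arrays, they are not 4 independent findings. On the arrays themselves, 3 of the 9 genes had all tumour arrays above both parental arrays and 3 had all below, where 15.7% and 12.4% of all genes tested did. MMP3 and MMP10, which are 2 of the 3 above, passed the filter through tumour arrays only, so that higher tumour values were needed for them to be tested, and the count supports nothing by itself.

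The comparison of resistant with sensitive tumours bears on the labelled response to SM-164, with the tumour as the replicate. In that fit none of the 9 genes was called, as no gene of the 14929 was (0%, with 661 at an unadjusted p under 0.05). MMP1 averaged 13.87 in T2, 13.96 in T3, 13.23 in T6 and 13.44 in T8, a difference of 0.59 ± 0.11 (SE, 2 tumours against 2; adjusted p = 0.894). MMP10 averaged 5.85 in T2, 5.73 in T3, 5.08 in T6 and 5.01 in T8, a difference of 0.74 ± 0.09 (adjusted p = 0.894). For MMP3 the difference was 1.17 ± 1.15 (adjusted p = 0.909), with an error as large as the value. A fit over arrays with line as a random effect called none of the 9 genes either, and 4 of all genes.

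Over the arrays of these particular tumours, MMP1, MMP3 and MMP10 were called higher in the resistant pair, and TIMP2 and TIMP3 lower, against 4.76% of all genes higher and 14.2% lower (19% in either direction). MMP1 differed by 0.59 ± 0.05 (adjusted p = 4.85e-06) and MMP10 by 0.74 ± 0.11 (adjusted p = 0.000451). In these 2 genes every resistant array lay above every sensitive array, which held for 3.97% of all genes tested. The MMP3 difference of 1.17 ± 0.08 (adjusted p = 5.10e-07) rested on T3. Without T3 it turned to -0.55 (adjusted p = 0.00284), T2 lying below T8, while it was 2.89 without T2 and 0.75 without T6. TIMP2 differed by -0.23 ± 0.05 (adjusted p = 0.00505), with resistant arrays at 12.31 to 12.59 and sensitive arrays at 12.49 to 12.83, which overlap. Its other probe sets gave larger differences, -0.35 ± 0.05 for 224560_at, whose resistant arrays (11.96 to 12.21) lay just below the sensitive ones (12.22 to 12.57), and -0.41 ± 0.05 for 203167_at, whose arrays overlapped. Without T8 the difference of the leading probe set was -0.085 and not called (adjusted p = 0.444), and without T6 it was -0.37. TIMP3 differed by -0.38 ± 0.05 (adjusted p = 0.000211), with resistant arrays at 9.99 to 10.47 and sensitive arrays at 10.41 to 10.74, and without T2 by -0.16, not called (adjusted p = 0.0628). Without T3 it was -0.59. The direction of MMP1 and MMP10 held, and their call over arrays too, with any 1 tumour left out, at 0.48 to 0.69 for MMP1 and 0.68 to 0.80 for MMP10. TIMP1 differed by 0.04 ± 0.04 (adjusted p = 0.547), MMP14 by 0.13 ± 0.06 (adjusted p = 0.142), MMP2 by 0.12 ± 0.09 (adjusted p = 0.385) and MMP9 by -0.13 ± 0.10 (adjusted p = 0.385), none of them called. The other MMP14 probe sets gave -0.05 (202828_s_at) to 0.08 and were not called either, so its direction differed between probe sets. Without T3, TIMP1 was called at 0.17 (adjusted p = 0.0263), and without T2, MMP14 at 0.20 (adjusted p = 0.0410). Among markers of other cells, 2 of 6 endothelial genes were called higher and 2 lower in the resistant tumours over arrays. Of 6 fibroblast genes tested 2 were higher and none lower, and of 5 macrophage genes 1 was higher and 2 lower. The line means of CDH5 and TIE1 exceeded log2 5 in the sensitive line T8 alone, so high values there helped these endothelial genes to be tested. These marker counts support nothing by themselves. The part of other cells in these differences was not tested.

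**Figure D4:**
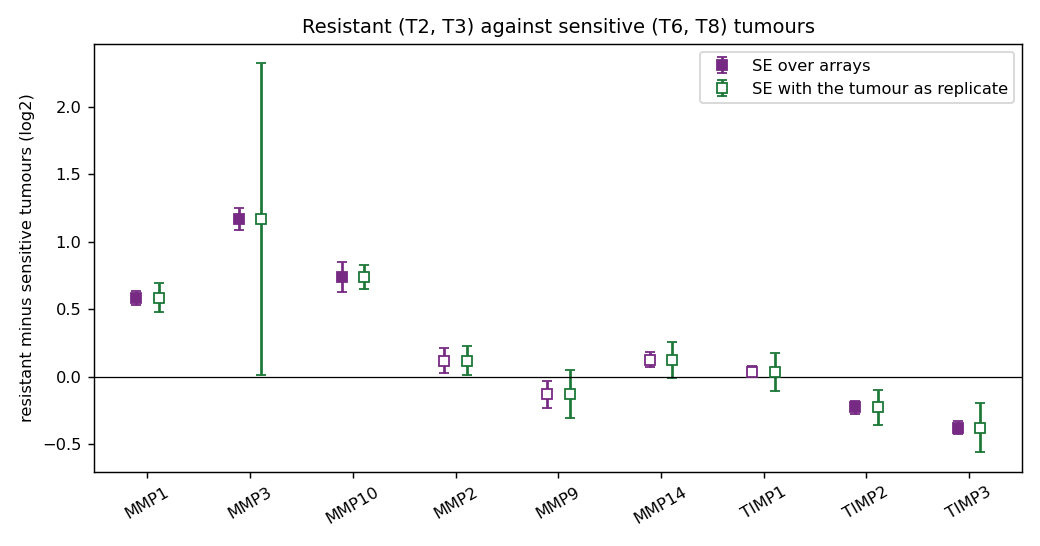
Log2 difference of the resistant (T2, T3) from the sensitive (T6, T8) tumours for the 9 genes, once with the SE over arrays and once with the SE when the tumour is the replicate; filled squares passed the test over all genes and open squares did not. For MMP3 the SE is 0.08 over arrays and 1.15 over tumours, and no square of the fit with the tumour as replicate is filled.

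The pairs of tumours gave different sets of called genes. Between T2 and T3, TIMP1 was higher and MMP3 and TIMP3 lower in T2 (all genes tested 13.9% higher and 16.9% lower, 30.8% in either direction). Between T6 and T8, TIMP1 was higher and MMP3 and TIMP2 lower in T6 (4.66% and 10.4%, 15.1% in either). T2 was higher than T6 in MMP1 and MMP10 and lower in TIMP3 (3.08% and 6.38%, 9.46% in either). It was higher than T8 in MMP1, MMP10 and TIMP1 and lower in MMP3, TIMP2 and TIMP3 (9.66% and 22.1%, 31.8% in either). T3 was higher than T6 in MMP1, MMP3, MMP10 and MMP14 and lower in TIMP1 (11.3% and 13.7%, 25% in either). It was higher than T8 in MMP1, MMP3 and MMP10 and lower in MMP9, TIMP2 and TIMP3 (4.66% and 13.8%, 18.4% in either). MMP1 and MMP10 were called in each of the 4 pairs of a resistant and a sensitive tumour and in neither pair of like label. These pairs reuse the same 4 lines and are not independent, and the share of all genes with this pattern is not given here. With the tumour as replicate neither gene was called. Some pair counts leaned on 1 array. Without T8 replicate 1, T6 and T8 differed in MMP3 alone and T3 and T8 in 3 genes, MMP1, MMP3 and MMP10. For T3 and T6, 3 genes were left without T3 replicate 2 (MMP1, MMP3 and TIMP1) and 2 without T6 replicate 2 (MMP1 and MMP3).

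The other genes of the family were given from a list of 18, of which 17 were on the array. Only 8 of these reached the filter, and of the 8 none was called higher and 2 lower in the tumours, with a median difference of -0.16. Over all genes tested 25.5% were higher and 16.8% lower, with a median of 0.0015, so 2 of 8 lower is near the share of all genes. MMP15, a further membrane-type MMP, averaged 7.05 in the tumours and 7.52 in parental cells, a difference of -0.47 ± 0.11 (adjusted p = 0.00361), called in T3, T6 and T8 one by one and not in T2. MMP25, also membrane-bound, averaged 6.25 in the tumours and 6.58 in parental cells (-0.33 ± 0.11, adjusted p = 0.0300), called in T6 alone of the single tumours. MMP11 (-0.15), MMP17 (-0.27), MMP19 (0.15), MMP24 (0.12), MMP28 (-0.18) and TIMP4 (-0.12) were not called in the mean of the 4 tumours, with SEs of 0.09 to 0.12 and adjusted p-values of 0.0907 to 0.426. One by one, MMP17 (-0.50, adjusted p = 0.0195) and MMP28 (-0.33, adjusted p = 0.0332) were called lower in T8. MMP19 was called higher in T2 (0.40, adjusted p = 0.0259). Between T2 and T3, MMP19 was called higher (0.49) and TIMP4 lower (-0.45) in T2. In the cluster of 9 MMP genes on chromosome 11, the called genes MMP10, MMP1 and MMP3 are the fifth, the sixth and the seventh in order. MMP7, MMP20, MMP27 and MMP8 on one side and MMP12 and MMP13 on the other stayed between 3.38 and 4.71 on every array, below the filter, so no change in them could be measured.

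**Figure D5:**
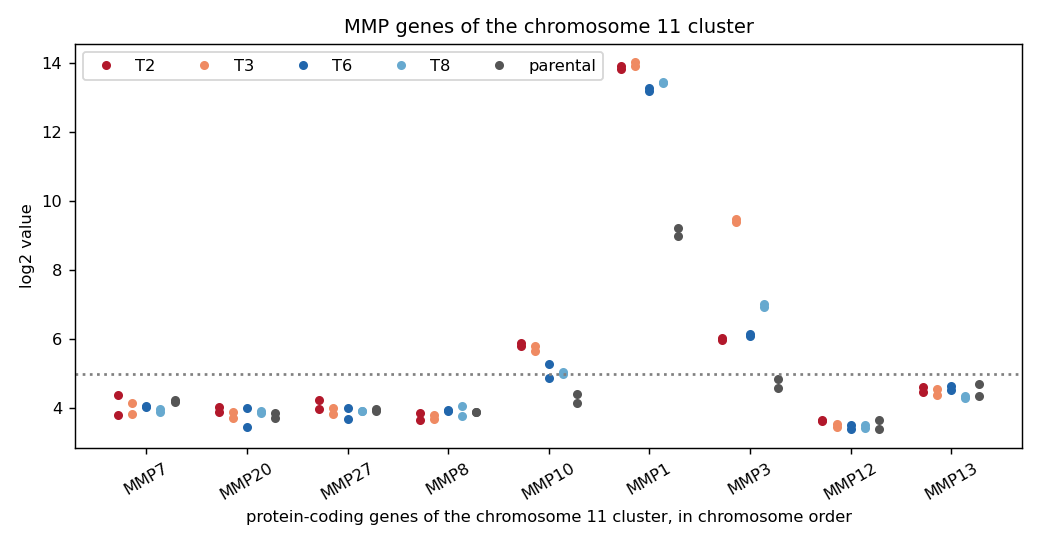
Log2 values on each array for the 9 protein-coding MMP genes of the chromosome 11 cluster in chromosome order, by line; the dotted line is log2 5. MMP10, MMP1 and MMP3 lie next to each other and are higher on every tumour array than on parental arrays, with MMP10 below log2 5 on 1 array each of T6 and T8, while the other 6 genes stay at or below 4.71.

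Further lists of the pathway gave mixed directions against the 25.5% of all genes called higher and 16.8% called lower. Of 16 tested regulators and activators of MMPs 3 were higher and 4 lower in the tumours, with a median difference of -0.17. SERPINE2, an inhibitor of serine proteases, was higher by 0.96 ± 0.06 (adjusted p = 1.43e-08), and THBS2, a matricellular protein that promotes the clearance of MMP2, by 0.90 ± 0.12 from a parental value of 4.42. PLAU, the urokinase that generates plasmin, a proteinase able to activate proMMPs, was lower by -1.06 ± 0.05 (adjusted p = 3.19e-10), and TFPI2, a secreted inhibitor of plasmin and other serine proteases, by -0.82 ± 0.06. Of 17 transcription factors of the AP-1, ETS and RUNX groups, which bind MMP promoters, 6 were higher and 5 lower, with a median of 0.0093. ETS1 (0.85 ± 0.08) and FOS (0.80 ± 0.09) were higher, RUNX2 (-0.52 ± 0.09) and ELK1 (-0.50 ± 0.06) lower. RUNX2 was called in T3 (-1.10) and T8 (-0.60) and not in T2 (-0.32) or T6 (-0.07), and without T3 its mean difference was -0.33. FOS averaged 6.47 in T2, 7.36 in T3, 6.35 in T6 and 6.83 in T8 against 5.95 in parental cells.

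Of 19 other metalloproteinases 4 were higher and 7 lower, with a median of -0.17. ADAMTS1, which cleaves the proteoglycans aggrecan and versican, was higher by 2.43 ± 0.08 (adjusted p = 8.93e-12) and ADAMTS6 by 1.64 ± 0.10, while ADAMTS15 was lower by -1.63 ± 0.07 (adjusted p = 1.41e-10) and ADAM8 by -0.64 ± 0.06. Of 18 matrix substrates 5 were higher, led by VCAN (0.93 ± 0.13), the gene of the proteoglycan versican, and COL4A1 (0.70 ± 0.07), a basement membrane collagen. There 4 were lower, led by the fibrillar collagen gene COL5A1 (-1.33 ± 0.08) and the laminin chain gene LAMB3 (-0.43 ± 0.05). LAMB3 went both ways, lower in T2 (-1.16) and T6 (-0.68), not called in T8 (-0.12) and called higher in T3 (0.23, adjusted p = 0.0155), and its mean difference was -0.19 without T2 and -0.65 without T3. VCAN was not called in T3 (0.43). Its mean was 6.13 in both T3 and T8, against 6.81 in T2, 7.45 in T6 and 5.70 in parental cells, and its mean difference was 0.66 without T6. Of 6 receptors for collagens and proteases, F2R, the thrombin receptor that MMP1 can also cleave, was higher by 0.80 ± 0.11 and the collagen-binding integrin gene ITGA1 by 0.66 ± 0.11. F2R was not called in T3 (0.36). ITGA2, of another collagen-binding integrin, was lower by -0.33 ± 0.06 (adjusted p = 0.000388), with T3, T6 and T8 called lower and T2 not called at 0.10.

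The genes most like each member in pattern were sought by Pearson's r over the 10 arrays, among 1140 genes whose line means spanned at least log2 1, for the 4 members that did so too. The arrays of a line share their source and parental cells stand apart, so r is a description and r over the 8 tumour arrays is given beside it. MMP1 was followed most closely by NAGS (r = 0.995, and 0.823 over tumour arrays), EMB (0.991 and 0.666) and EDN1 (0.990 and 0.821). EDN1, the endothelin gene, averaged 10.87 in T2, 11.29 in T3, 10.61 in T6 and 10.87 in T8 against 8.50 in parental cells. MMP3 was followed by OGFRL1 (0.977 and 0.974), EVA1A (0.976 and 0.990) and NR2F1-AS1 (0.976 and 0.975), each of them highest in T3. For MMP10 these were KLF5 (0.941 and 0.910), TNFAIP3 (0.934 and 0.856), an inhibitor of NF-kB signalling, and TMEM156 (0.933 and 0.835). For TIMP3 they were EBP (0.988 and 0.957), FAM20C (0.987 and 0.948) and TOX2 (0.985 and 0.943), all highest in parental cells and lowest in T2. Between members, MMP1 and MMP10 had r = 0.869 over all arrays and 0.915 over the tumour arrays, MMP10 and TIMP3 had -0.928 and -0.815, and TIMP2 and TIMP3 had 0.899 and 0.819. MMP1 and MMP3 had 0.672 and 0.550. The pairs just given kept their sign within the tumours, but others did not. TIMP1 and TIMP2 had 0.534 and -0.604, TIMP1 and TIMP3 0.736 and -0.625, and MMP1 and MMP14 -0.658 and 0.755. MMP1 and TIMP1 had -0.92 over all arrays and -0.0957 over the tumour arrays.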

How the data were processed

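The authors deposited log2 expression values of 54675 probe sets, with a column for each array. The tools named, per the submitters' processing notes, are affy, RMA and limma, and their versions and settings are not given in the sources used here. RMA corrects background, quantile-normalises and summarises probes, and it compresses differences near background. No value was missing, and no detection filter had been applied by the authors. Array medians were 5.43 to 5.57. Precision is set by the number of arrays in the fits over arrays, and by the number of tumours where the tumour is the replicate.

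Gene names came from the supplied platform annotation of the probe sets. Of 41091 probe sets with a single symbol, 41037 were matched by Entrez number to the RefSeq table of GRCh38.p14 and took its symbol, changed or not. The 62 control probe sets, 1801 with several symbols and 11721 with none stayed out of the fit by gene. The probe set with the highest mean stood for its gene, and 14929 of 19775 genes reached log2 5 on at least 2 arrays and were tested. Limma 3.58.1 (R 4.3.3; lmFit, eBayes with trend) was fitted with 1 coefficient per line over 10 arrays (5 residual degrees of freedom, prior 9.39). For the labelled response it was also fitted on line means by class (2 residual degrees of freedom, prior 2.73). A call is a Benjamini-Hochberg adjusted p under 0.05 over all genes tested. A fit over 33341 probe sets gave the values of each member probe set. The fit was tested on simulated data. Groups and replicate numbers came from the sample titles and the response from the source names.

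The members and lists were chosen with earlier results of these data known. All 9 members are named, with all tested genes of the family and, per further list, the called genes with the largest difference, 2 per direction. Markers are named outside this rule. Promoter sequences are from RefSeq (GRCh38.p14). Alternatives were other normalisations, filters, choices of probe set, spread estimates, a replicate block, a random line block and each array or tumour left out.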

Additional observations from a re-analysis of the deposited data

Results flagged for a closer look

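Several genes differed between tumours by a test of the difference itself, over arrays. Between resistant and sensitive tumours the difference was 0.59 for MMP1 (adjusted p = 4.85e-06), 1.17 for MMP3 (adjusted p = 5.10e-07), 0.74 for MMP10 (adjusted p = 0.000451), -0.23 for TIMP2 (adjusted p = 0.00505) and -0.38 for TIMP3 (adjusted p = 0.000211). With the tumour as replicate none of the 5 was called. Within the resistant pair, T2 minus T3 was -3.43 for MMP3, 0.27 for TIMP1 and -0.43 for TIMP3. Within the sensitive pair, T6 minus T8 was -0.85 for MMP3, 0.24 for TIMP1 and -0.29 for TIMP2. The difference of MMP3 within the resistant pair was thus larger than that between the labelled classes.

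MMP9 had 1 array far from the others of its class, T3 replicate 2 at 6.06 beside 6.43 to 6.46 on the other resistant arrays. The gap made up 0.930 of the range, above the critical value of Dixon's test for 4 arrays. That value assumes 4 independent arrays, of which chance flags about 1 in 20 groups. These were 2 arrays each of T2 and T3, so the rate does not apply and the flag is a description. The arrays of T3 were 0.368 apart for MMP9, and those of T8 0.337.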

How the results depend on the processing

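Against parental cells, 201 of 202 gene values under alternatives kept their direction and their side of the threshold; MMP14 without parental replicate 2 did not (-0.23). Over them MMP1 ran from 4.40 to 4.65 and MMP3 from 1.65 to 2.79. Between resistant and sensitive tumours, directions turned when 1 tumour was left out, an alternative chosen after seeing the data: MMP3 without T3 (-0.55), TIMP1 without T2 (-0.10) or T8 (-0.0825) and MMP9 without T8 (0.0815), of which MMP3 alone was called, over arrays. Repeated quantile normalisation brought a call for MMP14 over arrays (0.21). The cause of these changes was not tested, beyond the fewer tumours compared.

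The number of the 9 genes called stayed within 1.5 times under all alternatives run but those for 3 pairs of tumours. T3 minus T6 gave 3 in place of 5 genes with centred medians and also without a trend, and T6 minus T8 gave 1 in place of 3 without a trend. With each array left out in turn, T3 minus T6 gave 2 to 5 genes, T6 minus T8 gave 1 to 4 and T3 minus T8 gave 3 to 6. Deviations of same-numbered arrays correlated between -0.387 and 0.502 over pairs of lines. They were positive for T2 with T3 (0.502) and among T6, T8 and parental cells (0.146 to 0.308), and negative in every pair across these sets. The replicate number thus did not mark a pairing common to all lines. Whether arrays share a component under another numbering was not tested. Used as a block, the replicate number kept 7 genes called for the 4 tumours against parental cells and 5 over arrays for the response. Such a block cannot take up a component of opposite sign in different lines.

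MMP3 and MMP10 in parental cells and MMP10 in T6 and T8 lay near or below log2 5, which limits how well the size of their differences is known. Centring medians moved the median difference of all genes by no more than 0.1 in each comparison, and to 0.13 in T8 minus parental cells, where it was 0.03 before.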

Other observations

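The wider lists were also read between resistant and sensitive tumours, over arrays, where 4.76% of all genes tested were higher and 14.2% lower. With the tumour as replicate none of their genes was called. Of 19 other metalloproteinases 2 were higher and 4 lower. ADAMTS1 averaged 8.89 in the resistant and 8.54 in the sensitive tumours (0.34 ± 0.07, adjusted p = 0.00443), and the difference was 0.05 without T6, 0.63 without T8 and 0.21 without T2. ADAMTS6 averaged 8.30 in the resistant and 8.84 in the sensitive tumours (-0.55 ± 0.09, adjusted p = 0.000742), and the difference was -0.06 without T2, -1.03 without T3 and -0.34 without T8. The ADAM8 difference of -0.30 ± 0.05 rested on T3, turning to 0.06 without it, and T2 was called higher than T8 (0.29). Of 6 receptors ITGA2 alone was called, at 10.21 in the resistant and 9.86 in the sensitive tumours (0.35 ± 0.05, adjusted p = 0.000485), which was 0.10 without T2 and 0.61 without T3. Of 17 transcription factors 3 were higher and 5 lower. FOS differed by 0.33 ± 0.08 and RUNX2 by -0.37 ± 0.08, and both turned without T3, to -0.12 for FOS and 0.02 for RUNX2. FOS was called lower in T2 than in T8 (-0.36). These values without a tumour come from line means, were added after seeing the data and have no test. Of the 8 further MMP and TIMP genes tested none was called in either direction (limma, over arrays), with a median difference of 0.15.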
